A study of Mus musculus with 65 samples.

Results

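The medulla of Atxn1 knockin mice at 28 weeks of age was compared with the medulla of wild type mice of the same age, gene by gene. The comparison held 16 of the 65 RNA sequencing libraries of the study, 8 from knockin and 8 from wild type mice, chosen as the vehicle-treated medulla libraries of that age in the deposited count table. The knockin is labelled Atxn1[82Q] and carries an expanded CAG repeat within the mouse Atxn1 gene, so that the gene's own promoter drives it in every cell type that uses the gene. Both groups are of the C57BL/6J strain, both had received vehicle and no antisense oligonucleotide, and each was spread evenly over 2 labelled batches with 4 libraries per genotype in each. The same groups from pons at 28 weeks and from cerebellum at 18 weeks, with 4 libraries per genotype in each tissue, serve below only to show where the medulla differs. Whether libraries of a group came from different animals is not given in the labels, and the p-values therefore cover only the spread among these libraries.

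Ataxin-1 is a nuclear protein that binds the transcriptional repressor Capicua, and an expanded glutamine tract in it gives rise to spinocerebellar ataxia type 1, a disease of cerebellum and brainstem. The medulla holds the inferior olive, whose axons climb onto cerebellar Purkinje cells, the caudal raphe with its serotonin neurons, noradrenergic groups, cranial motor nuclei and long myelinated tracts. Astrocytes there clear glutamate and potassium, and oligodendrocytes build myelin from cholesterol and long fatty acids. Levels below are CPM, a gene's share of its library's gene counts, scaled by trimmed mean of M-values (TMM) factors. Differences are knockin against wild type on the log2 scale with their standard error, fitted with batch as a term by edgeR's quasi-likelihood test, and "rose" and "fell" are used of genes past an adjusted p of 0.05. Where a range is given, it covers the 8 libraries of a group, with the median after it.

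The libraries held 77.0 to 105.0 M counts (median 85.8). Some libraries stood apart. Hox genes, which mark position along the hindbrain, had a mean of 2.77 to 4.06 log2 CPM in 14 libraries but 0.02 in knockin replicate 8 and -0.29 in wild type replicate 5. On a scale shared by the tissues those 2 libraries, at -0.27 and 0.03, lay within the range of the pons libraries (-1.22 to 0.73). Markers of the choroid plexus, the secretory epithelium of the ventricle, were highest in knockin replicate 2, where Ttr reached 23300 CPM against 19.7 to 4290 CPM in the other libraries. That library also held the most counts of all and the highest levels of the cerebellar granule cell genes Gabra6 (64.6 CPM) and Cbln3 (127 CPM). Xist was above 100 CPM in 4 of 8 libraries of each group, 2 per group and batch. In 4 libraries Xist and the Y-linked Ddx3y were both above 1 CPM. Xist and Ddx3y were at 26.4 and 72.1 CPM in wild type replicate 7, at 5.75 and 83.2 CPM in wild type replicate 4, at 5.36 and 105 CPM in knockin replicate 4 and at 479 and 1.73 CPM in knockin replicate 2. Where leaving out the libraries low in Hox genes, or those and knockin replicate 2 ("the 3 libraries"), ended the call of a gene named here, that is stated beside it, and the larger moves of a list's count are given as well.

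**Figure D1:**
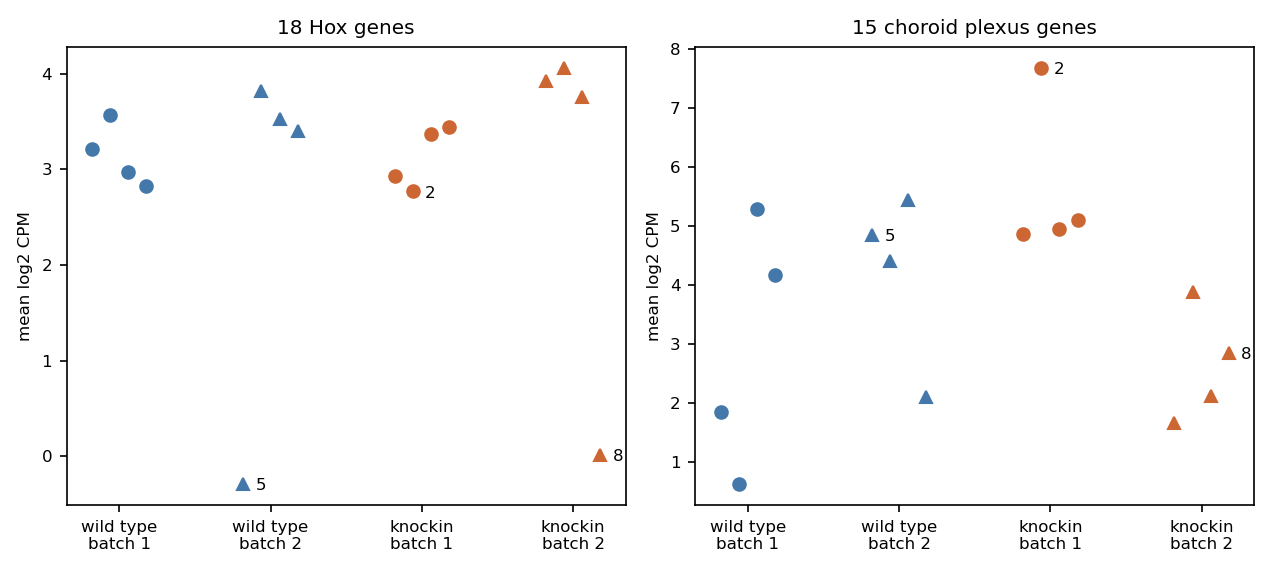
Mean log2 CPM of 18 Hox genes (left) and of 15 choroid plexus genes (right) in each of the 16 medulla libraries, by genotype and batch; each point is a library and the numbers mark libraries that stand apart. Knockin replicate 8 (0.02) and wild type replicate 5 (-0.29) lie below all other libraries in Hox genes, and knockin replicate 2 (7.68) lies above all others in choroid plexus genes.

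Atxn1, the gene that carries the repeat, was higher in knockin. Atxn1 (ENSMUSG00000046876, chromosome 13, 45549755 to 45965008 on GRCm38, minus strand) lay at 30.1 to 38.7 CPM in wild type (median 34.4) and at 40 to 48.2 CPM in knockin (median 43.7). Every knockin library was above every wild type library. The means were 34.4 ± 3.10 and 44.1 ± 3.16 CPM (SD, n = 8 each), a difference of 0.36 ± 0.05 (edgeR adjusted p = 1e-04), and an exact permutation within batches gave a two-sided p = 0.00041, the smallest that this design can give. The difference was 0.38 in batch 1 and 0.35 in batch 2. Counts over the gene do not separate the expanded allele from the wild type one, so that this level does not check the genotype labels.

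In all, 3454 of 19691 genes tested were called, which is 17.5%, with 1660 higher (8.43%) and 1794 lower (9.11%). The median difference over all genes was 0.01. Among called genes 48.1% were higher, and 64.4% with scaling by library totals alone, which raised the median difference to 0.04. Without knockin replicate 2, the library highest in choroid plexus genes, 5236 genes were called. Most changes were small, with 1149 rises and 935 falls of up to 1.25-fold. Falls outnumbered rises among larger changes. From 2-fold to 4-fold there were 46 rises and 117 falls, and 8 rises and 16 falls passed 4-fold. Groups did not overlap at all in 1.30% of genes that rose and in 2.00% that fell, out of all genes tested. Because a whole tissue was sequenced, fewer cells of a type and less RNA per cell cannot be told apart in any of these differences.

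Genes of the type I interferon response made up a large set of rises. Interferons signal through the Jak kinases to transcription factors such as Stat2 and Irf9, which bind the interferon-stimulated response element (ISRE) in promoters and switch on sensors of viral RNA, antiviral effectors and their own regulators. Of 36 listed genes, all tested, 27 rose, 0 fell and 9 did not pass, beside 8.43% of all genes that rose, and their median difference was 0.53 beside 0.01 for all genes. In 9 of the 36 the groups did not overlap, where 1.30% of all genes tested rose without overlap. The summed level of the list ran from 275 to 338 CPM in wild type (median 314) and from 340 to 528 CPM in knockin (median 414), so that the lowest knockin library lay just above the highest wild type library.

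The ISRE can be read directly in several of these promoters. In windows from 250 bases before to 50 bases after each RefSeq start (GRCm38.p6), the letters GAAA followed after any 2 bases by GAAA again, on either strand, overlapping matches included, were found in 15 of the 25 list members that have a window (60.0%), against 1079 of 27025 genes (3.99%). Of the 20 members with a window that rose, 11 held the letters. Stat2, Oas3, Bst2 and Gbp2, which were not called, held them too. Because the list was made of known interferon response genes, its share describes the list and not the rises in knockin. The following stretches of 120 bases come from the windows of 4 members that rose and are shown because they carry the element at different spacings, with the matching letters in capitals, 5′ to 3′ on the strand of the gene. A match describes the letters and not a site in use.
Ddx60, chr8:61927967-61928086, plus strand: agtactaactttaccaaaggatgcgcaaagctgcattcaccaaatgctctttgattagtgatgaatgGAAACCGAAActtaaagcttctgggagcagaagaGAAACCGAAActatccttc
Ifit1, chr19:34640749-34640868, plus strand: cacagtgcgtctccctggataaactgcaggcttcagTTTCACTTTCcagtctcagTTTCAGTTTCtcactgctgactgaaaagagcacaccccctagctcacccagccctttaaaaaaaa
Isg15, chr4:156200820-156200939, minus strand: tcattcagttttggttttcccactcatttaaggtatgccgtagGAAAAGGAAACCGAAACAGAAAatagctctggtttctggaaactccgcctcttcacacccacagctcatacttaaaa
Gbp3, chr3:142559924-142560043, plus strand: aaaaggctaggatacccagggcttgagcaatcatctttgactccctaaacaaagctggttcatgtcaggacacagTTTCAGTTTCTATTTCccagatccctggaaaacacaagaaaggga
Ddx60 and Ifit1 hold a pair of separate elements each, while in Isg15 and Gbp3 overlapping matches run into each other. The letters read TTTC at first in Ifit1 and Gbp3 because there the element lies on the opposite strand.

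Among the RNA sensors, Ddx60, a helicase that assists them, lay at 1.16 to 1.71 CPM in wild type (median 1.37) and at 2.10 to 4.05 CPM in knockin (median 3.26). Its groups did not overlap and it rose by 1.17 ± 0.13 (adjusted p = 1.2e-05). Ddx58, which encodes the sensor RIG-I, lay at 7.36 to 8.92 CPM in wild type (median 7.82) and at 9.94 to 13.3 CPM in knockin (median 11.9), again without overlap, a rise of 0.59 ± 0.06 (adjusted p = 6.1e-06). Ifih1, which encodes the related sensor MDA5, rose by 0.46 ± 0.06 without overlap. Eif2ak2, the kinase that halts translation on double-stranded RNA, lay at 10.7 to 13.3 CPM in wild type (median 11.7) and at 16.5 to 23 CPM in knockin (median 19.7). It had the lowest adjusted p of the list (1.5e-06), with a difference of 0.74 ± 0.07.

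Among the regulators, Irf7, the factor that amplifies interferon transcription, lay at 2.61 to 4.08 CPM in wild type (median 3.29) and at 4.50 to 9.67 CPM in knockin (median 7.18). Irf7 rose by 1.09 ± 0.13 (adjusted p = 2.7e-05). Usp18, a protease that takes Isg15 off its targets and dampens the receptor, lay at 1.10 to 2.57 CPM in wild type (median 1.58) and at 2.97 to 4.53 CPM in knockin (median 3.74), a rise of 1.23 ± 0.13 (adjusted p = 1.1e-05). In both genes every knockin library was above every wild type library. Irf9 rose by 0.34 ± 0.07, while Stat2 did not pass (0.13 ± 0.05, adjusted p = 0.071).

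Effector genes rose over a wide range of levels. Ifit1, whose protein binds foreign RNA caps, lay at 4.79 to 7.47 CPM in wild type (median 5.5) and at 7.52 to 19 CPM in knockin (median 10.6). The highest value was that of knockin replicate 8, one of the libraries low in Hox genes, and the difference of 0.96 ± 0.15 was 0.86 without both such libraries (adjusted p = 0.00039 and 0.00012). Oasl2 rose by 0.78 ± 0.09, Rsad2, the antiviral enzyme viperin, by 0.69 ± 0.11, Mx1 by 1.03 ± 0.26 and Ifi44 by 0.93 ± 0.17. The weakest calls were those of Ifit3, Isg15 and Lgals3bp, with adjusted p of 0.031 to 0.043, which ended in 13 to 16 of the 32 alternative settings each, those of Ifit3 and Isg15 also without the libraries low in Hox genes (adjusted p = 0.074 and 0.06). Bst2 and Ifi27 had knockin maxima of 20.5 and 130 CPM against medians of 6.02 and 52.0 CPM, and neither passed. Oas2, Oas3, Gbp2, Zbp1, Cmpk2 and Ifi27l2a were also not called.

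The count of interferon genes was lower within single batches. Within batch 1 alone 16 rose, where 0.635% of all genes rose, and within batch 2 alone 14 rose, where 11.2% did. In 32 of 36 genes the difference was positive in both batches. Without the 2 libraries low in Hox genes 24 rose, beside 7.10% of all genes, and without those and knockin replicate 2, 26 rose, beside 13%. Of 20 genes tested that make or sense interferon, 2 rose (10%, beside 8.43% of all genes), 0 fell and 18 did not pass, and the median was -0.01. The 2 were Tlr3 (0.30 ± 0.07), a receptor for double-stranded RNA, and Samhd1 (0.15 ± 0.04), a nuclease. Irf1, Irf3, Mavs, Ifnar1 and Ifnar2 did not pass.

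Several genes of antigen presentation by class I molecules rose as well, by smaller amounts. Of 18 genes, 8 rose, 0 fell and 10 did not pass, where 8.43% of all genes rose, and the median was 0.24. H2-D1, a classical class I heavy chain, lay at 81.4 to 93.4 CPM in wild type (median 89.9) and at 93.2 to 116 CPM in knockin (median 105). Its groups met only at the edge, and it rose by 0.24 ± 0.04 (adjusted p = 0.00052). Nlrc5, the transactivator of class I genes, rose by 0.57 ± 0.11, H2-K1 by 0.32 ± 0.07, the light chain gene B2m by 0.25 ± 0.06 and the peptide transporter genes Tap1 and Tap2 by 0.29 ± 0.08 and 0.25 ± 0.06. The call of Tap1 ended without the libraries low in Hox genes (0.26, adjusted p = 0.063). Class II genes did not pass, and the difference of Cd74 was -0.03 ± 0.27.

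No marker of immune cells on the lists was called higher. Of 16 genes of homeostatic microglia 0 rose and 3 fell (18.8% called, beside 17.5% of all genes). These were Trem2, Olfml3 and Fcrls, from -0.28 to -0.41. Of 20 genes of activated microglia 0 rose and 5 fell (25% called). Lpl, a lipase of activated microglia that other cells also make, fell by 0.89 on the log2 scale and Spp1 by 0.56. Of 18 lymphocyte genes only 8 were expressed highly enough to test, and 1 of them, Trac, fell. Trac, a T cell receptor constant gene, lay at 1.96 to 3.44 CPM in wild type (median 2.26) and at 0.746 to 1.73 CPM in knockin (median 0.982), a difference of -1.27 ± 0.15 without overlap. Trbc2, another T cell receptor constant gene, and Ptprc did not pass (-0.04 ± 0.21 and -0.13 ± 0.10, adjusted p = 0.92 and 0.4). Cd3e, Cd3d, Cd3g, Cd4 and Cd8a were among the genes too low to test. Of 14 chemokines tested 0 rose and 1, Cxcl12, fell (7.14% called). Of 16 complement genes 0 rose and 3, C4b, C3 and C1qb, fell (18.8% called). Without the libraries low in Hox genes C1qb did not pass (adjusted p = 0.067), and without the 3 libraries 4 chemokine genes fell. The summed level of homeostatic microglia genes ran from 401 to 544 CPM in wild type and from 341 to 485 CPM in knockin.

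**Figure D2:**
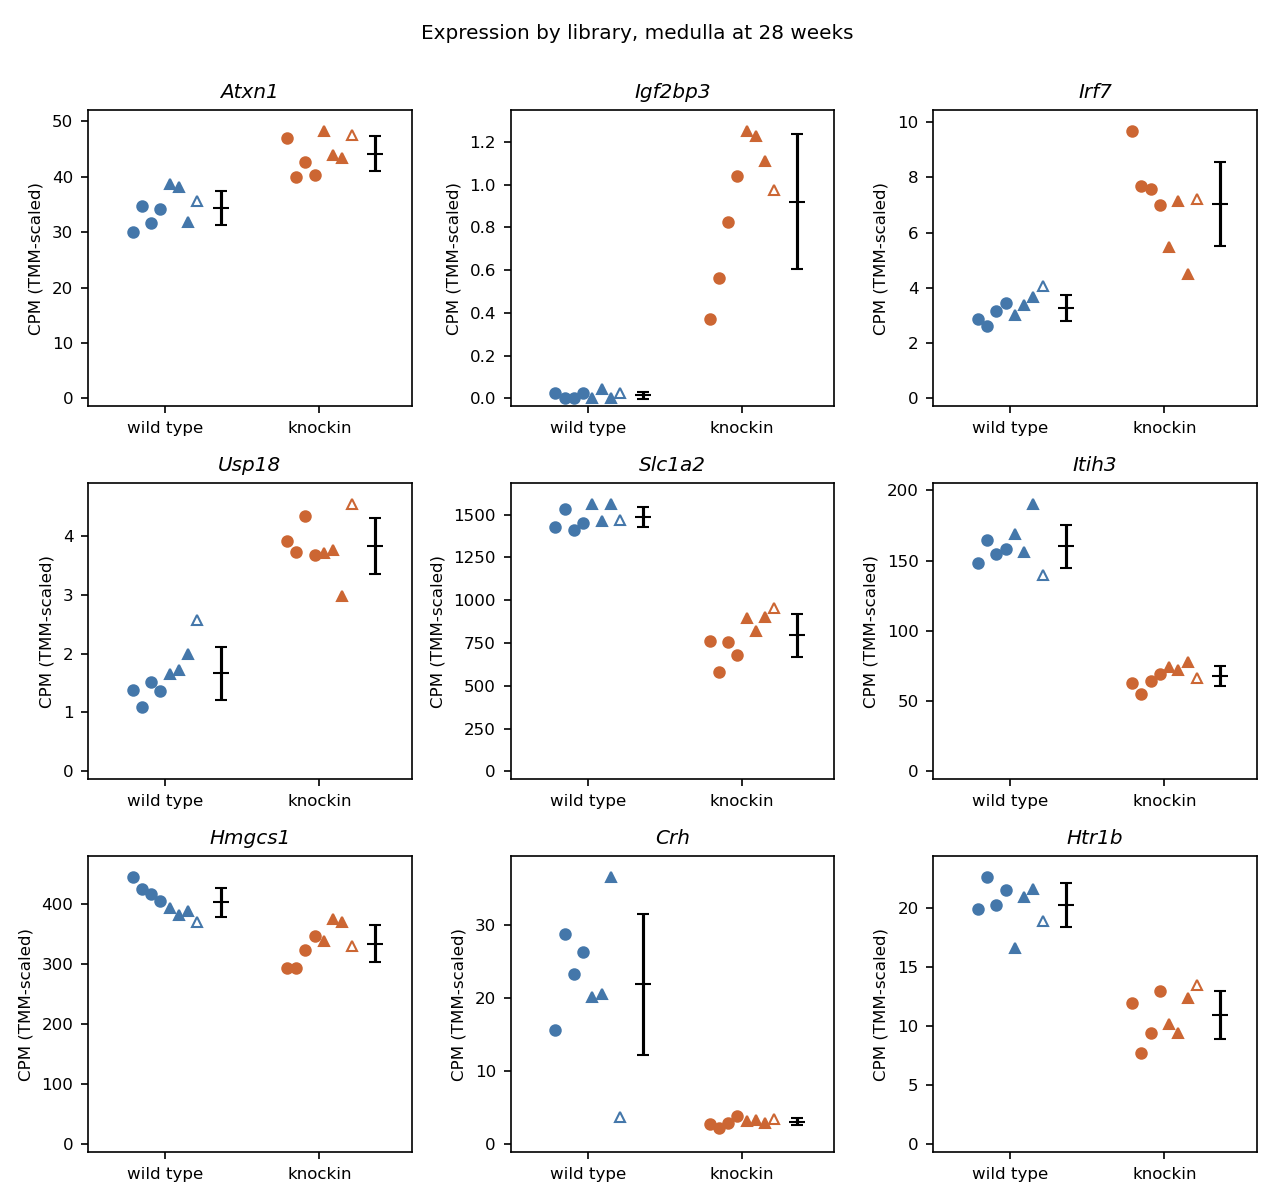
Level of 9 genes (y axis, TMM-scaled CPM) in the 8 wild type and 8 knockin medulla libraries; circles are batch 1, triangles batch 2, open symbols the libraries low in Hox genes, and bars the mean and SD of each group. Groups do not overlap in Atxn1, Igf2bp3, Irf7, Usp18, Slc1a2, Itih3 and Htr1b, and they meet in Hmgcs1 and, through wild type replicate 5, in Crh.

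The largest fitted rise among called genes was that of Igf2bp3, which was nearly silent in wild type. Igf2bp3 encodes an RNA-binding protein of fetal and tumour tissue. In wild type, 10 reads were counted over 4 of 8 libraries, with at most 4 in a library, while the knockin libraries held 31 to 108 reads each and 654 together. The ratio of the summed levels was 61.5 (95% interval 33.2 to 129, counting error only, and too narrow even for that, since the mates of a pair seem to have been counted singly). Levels ran from 0 to 0.0421 CPM in wild type and from 0.373 to 1.25 CPM in knockin. The test gave an adjusted p of 1.2e-07. Igf2bp3 was also called in the pons.

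Other developmental genes were among the rises. Of 12 oncofetal and developmental genes tested, 6 rose, 0 fell and 6 did not pass, where 8.43% of all genes rose. Their median was 0.36. Tmc3, a transmembrane channel-like gene, lay at 2.75 to 3.84 CPM in wild type (median 3.14) and at 5.31 to 8.81 CPM in knockin (median 7.99), a rise of 1.22 ± 0.11 without overlap (adjusted p = 1.7e-06). Lin28b, which blocks maturation of let-7 microRNAs, rose by 0.41 ± 0.09, and the Notch ligand genes Dll1 and Dll3 rose by 0.37 ± 0.10 and 0.51 ± 0.11. Igf2bp2, H19, Dcx, Sox4, Sox11 and Dlk1 did not pass, and Dcx passed without the 3 libraries (0.21, adjusted p = 0.019). Spag6, a gene of the axoneme, lay at 0.950 to 2.39 CPM in wild type (median 1.49) and at 4.05 to 9.29 CPM in knockin (median 6.13). Among called genes with an average of at least 1 log2 CPM and no overlap between groups it had the largest rise, 2.02 ± 0.21, but it has a near-identical copy, Spag6l, and reads may be split between the copies.

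The rest of the 10 largest rises at that expression level came from several classes. Calca, which encodes calcitonin gene-related peptide of motor and sensory neurons, lay at 10.9 to 21.5 CPM in wild type (median 16.8) and at 22.6 to 54.7 CPM in knockin (median 34.8), a rise of 1.11 ± 0.12 (adjusted p = 1.4e-05). Uts2, the motor neuron peptide urotensin, lay at 0.289 to 1.58 CPM in wild type (median 1.09) and at 1.67 to 4.22 CPM in knockin (median 3.06), a rise of 1.66 ± 0.22. Neither gene overlapped between groups. Chdh, the mitochondrial enzyme that oxidises choline, lay at 11.8 to 17.7 CPM in wild type (median 16.6) and at 26.6 to 36.7 CPM in knockin (median 31.7), a rise of 1.01 ± 0.07 (adjusted p = 1.5e-07). Acy3, an aminoacylase, rose by 0.94 ± 0.08 without overlap.

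Targets of Capicua, the repressor that ataxin-1 binds, were split. Of 19 listed genes 7 rose, 1 fell and 11 did not pass, where 8.43% of all genes rose, and the median was 0.13. Ccnd2, a cyclin of the G1 phase, lay at 12 to 18.4 CPM in wild type (median 14.3) and at 20.9 to 35.3 CPM in knockin (median 26.4), a rise of 0.91 ± 0.11 (adjusted p = 3.7e-05). Etv4, an Ets factor and a classical Capicua target, lay at 9.54 to 16.1 CPM in wild type (median 11.7) and at 17.1 to 20.9 CPM in knockin (median 18.0), a rise of 0.59 ± 0.09 (adjusted p = 0.00027). Both genes separated the groups without overlap. The related Etv1 and Etv5 rose by 0.22 ± 0.04 and 0.15 ± 0.04, and Maff, Spry1 and Spred2 also rose, Spred2 not without the libraries low in Hox genes (adjusted p = 0.058). Phlda1 fell by 0.29 on the log2 scale, and Dusp4, Dusp6, Spry2, Spry4 and Ccnd1 did not pass. The Capicua octamer, TGAATGAA or TCAATGAA on either strand, was found in 3 of the 10 members with a promoter window (30%), against 635 of 27025 genes (2.35%). The 3 were Spry2, Spred3 and Maff. Of the 5 called members with a window, only Maff held the octamer. The share describes a list of known targets and not the changes in knockin.

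Of 15 genes tested on the list of Atxn1 and its protein partners, Atxn1 among them, 4 rose, 0 fell and 11 did not pass, beside 8.43% of all genes that rose, and the median was 0.08. Without the 3 libraries 6 rose, beside 13% of all genes. Atxn1l, the paralogue that also binds Capicua, lay at 34.8 to 45.5 CPM in wild type (median 41.1) and at 40.7 to 49.7 CPM in knockin (median 46.3), with overlap, and rose by 0.19 ± 0.06 (adjusted p = 0.028), a call that ended in 10 of 32 settings. Pum2, a repressor of Atxn1 RNA, rose by 0.19 ± 0.05 and the kinase gene Rps6ka5 by 0.18 ± 0.06, a call that ended without the libraries low in Hox genes (0.15, adjusted p = 0.1). Cic, which encodes Capicua, differed by 0.13 ± 0.05 and did not pass (adjusted p = 0.065, and 0.014 without the 3 libraries), nor did Rora (0.16 ± 0.06, adjusted p = 0.083).

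Astrocyte genes fell in the knockin as a block. Of 24 listed genes 0 rose, 18 fell and 6 did not pass, where 9.11% of all genes fell, with a median of -0.55. In 14 of the 24 the groups did not overlap, where 2.00% of all genes tested fell without overlap. Their summed level ran from 10600 to 12100 CPM in wild type (median 10900) and from 6890 to 8370 CPM in knockin (median 7920), so that no knockin library reached the wild type range. Without the libraries low in Hox genes 18 fell, beside 8.88% of all genes, and 20 fell without all 3 libraries that stand apart, beside 13.5%. Batch 1 alone had 15 falls, where 1.87% of all genes fell, and batch 2 alone had 18, where 9.49% did.

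Transporters of glutamate and potassium were among them. Slc1a2 (ENSMUSG00000005089), the main glutamate transporter of astrocytes, lay at 1410 to 1560 CPM in wild type (median 1460) and at 578 to 957 CPM in knockin (median 794). The groups lay far apart, with a difference of -0.91 ± 0.07 (adjusted p = 1.2e-07). Glul, which turns the glutamate taken up into glutamine, lay at 1590 to 1940 CPM in wild type (median 1830) and at 994 to 1350 CPM in knockin (median 1110), a difference of -0.64 ± 0.05 (adjusted p = 1.2e-07). Slc1a3, the other glial glutamate transporter, did not pass and differed by 0.05 ± 0.07, with 211 to 271 CPM in wild type and 208 to 281 CPM in knockin. Kcnj10, the potassium channel Kir4.1, fell by 0.68 on the log2 scale and its partner Kcnj16 by 0.45. The GABA transporter gene Slc6a11 fell by 0.71, the glycine transporter gene Slc6a9 by 0.52, the gap junction genes Gja1 and Gjb6 by 0.60 and 0.55, and the water channel gene Aqp4 by 0.29.

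Other astrocyte genes encode secreted proteins, enzymes and receptors. Itih3, which encodes a hyaluronan-binding heavy chain, lay at 140 to 190 CPM in wild type (median 157) and at 54.9 to 77.8 CPM in knockin (median 67.7), a difference of -1.24 ± 0.06 with the lowest adjusted p of all genes (3.4e-09). Agt, which encodes angiotensinogen, lay at 128 to 232 CPM in wild type (median 168) and at 53.2 to 96.6 CPM in knockin (median 68.9), a difference of -1.25 ± 0.09 (adjusted p = 2.4e-07). Etnppl, an enzyme of phosphoethanolamine breakdown, fell by 1.23 on the log2 scale, and Ntsr2, a neurotensin receptor gene, lay at 139 to 172 CPM in wild type (median 150) and at 86.0 to 105 CPM in knockin (median 96.0), a difference of -0.68 ± 0.05. In all 4 genes no knockin library reached a wild type library. S100b (0.08 ± 0.08), Sox9 (-0.07 ± 0.11), Acsbg1 (0.12 ± 0.05), Mlc1 and Cldn10 did not pass, and the last 2 passed without the 3 libraries (-0.16 and -0.20).

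Genes of reactive astrocytes showed no shared rise. Of 19 genes 1 rose, 5 fell and 13 did not pass (31.6% called, beside 17.5% of all genes), and the median was -0.04. Gfap, the intermediate filament gene, lay at 471 to 1130 CPM in wild type (median 707) and at 325 to 765 CPM in knockin (median 507), with wide overlap, and did not pass (-0.57 ± 0.19, adjusted p = 0.054). Without the libraries low in Hox genes it did pass (-0.58, adjusted p = 0.022). Nes fell by 0.61 on the log2 scale without overlap, and Aspg by 1.02. The single rise, Psmb8, is also a gene of the immunoproteasome, and its call ended without the libraries low in Hox genes (adjusted p = 0.092).

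Genes of myelin and oligodendrocytes also fell. Of 31 genes 1 rose, 22 fell and 8 did not pass, where 9.11% of all genes fell, and the median was -0.25. In 9 the groups did not overlap, where 2.00% of all genes tested fell without overlap. Ugt8a, which makes galactosylceramide, lay at 214 to 271 CPM in wild type (median 230) and at 127 to 177 CPM in knockin (median 151), a difference of -0.64 ± 0.07 (adjusted p = 1.1e-05). Fa2h, which hydroxylates the fatty acids of that lipid, lay at 126 to 167 CPM in wild type (median 130) and at 72.3 to 101 CPM in knockin (median 88.6), a difference of -0.62 ± 0.06 (adjusted p = 6.6e-06). The groups were apart in both genes. Gal3st1, which adds the sulfate of sulfatide, fell by 0.43 on the log2 scale, and Cldn11, the tight junction gene of myelin, fell by 0.50.

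Other parts of the lineage moved less. Mbp, the myelin basic protein gene, lay at 8250 to 11400 CPM in wild type (median 9230) and at 6520 to 9290 CPM in knockin (median 7980), with overlap, and fell by 0.24 on the log2 scale (adjusted p = 0.008). The lineage factors Sox10 and Olig1 fell by 0.25 and 0.12, and Olig2 did not pass. Cnp, Mog, Opalin and Bcas1 did not pass, and Opalin and Mog passed without the 3 libraries (-0.17 and -0.16). Apod, the only rise of the list (0.32 ± 0.09), did not pass without the libraries low in Hox genes (0.27, adjusted p = 0.066), without the 3 libraries (0.23, adjusted p = 0.11) or in batch 1 alone (adjusted p = 0.33). Among 16 genes of oligodendrocyte precursors 1 rose, 3 fell and 12 did not pass (25% called, beside 17.5% of all genes). Their median was -0.06. The 3 were Gpr17, Cspg4 and C1ql1, which is also on the inferior olive list. Gpr17, a receptor of cells about to mature, fell by 0.59 without overlap. Without the 2 libraries low in Hox genes 23 myelin genes fell, and without all 3 that stand apart 24 fell. Within batches 11 and 12 fell.

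Most genes of cholesterol synthesis fell. Of 20 enzymes 0 rose, 15 fell and 5 did not pass, where 9.11% of all genes fell, and the median was -0.26. In 6 the groups did not overlap, where 2.00% of all genes tested fell without overlap. Hmgcs1, the entry enzyme of the pathway, lay at 370 to 444 CPM in wild type (median 399) and at 293 to 375 CPM in knockin (median 334), the groups just meeting, and fell by 0.27 on the log2 scale (adjusted p = 0.0028). Mvd, the decarboxylase of mevalonate, lay at 21.4 to 29.5 CPM in wild type (median 26.4) and at 14.4 to 19 CPM in knockin (median 17.2), a difference of -0.62 ± 0.06 (adjusted p = 3.6e-06). Idi1 fell by 0.48, the lanosterol demethylase gene Cyp51 by 0.49, Msmo1 by 0.43 and Dhcr7, the last step of one branch, by 0.39. Groups did not overlap in Mvd, Idi1, Cyp51, Msmo1 and Dhcr7. Fdps, Lss, Tm7sf2 and Hsd17b7 did not pass, and Fdps and Tm7sf2 passed without the 3 libraries (-0.22 and -0.14).

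Hmgcs1 is a textbook target of the sterol regulatory factor SREBP2, whose element TCACNCCAC can be seen in its promoter. The letters were found in 1 of the 15 enzymes with a window (6.7%), against 388 of 27025 genes (1.44%). That enzyme is Hmgcs1, the only match among the 12 called enzymes with a window. A single match cannot show that the list differs from all genes. A stretch of 120 bases from the window of Hmgcs1 is shown with the element in capitals.
Hmgcs1, chr13:119690158-119690277, plus strand: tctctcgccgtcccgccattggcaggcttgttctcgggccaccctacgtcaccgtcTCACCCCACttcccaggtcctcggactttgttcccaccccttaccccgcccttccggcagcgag
Srebf2, which encodes the factor, differed by -0.06 and did not pass. Of 20 genes of sterol regulation, uptake and export 2 rose, 3 fell and 15 did not pass (25% called, beside 17.5% of all genes). Abca1, the exporter of cholesterol, lay at 39.0 to 51.5 CPM in wild type (median 43.0) and at 59.3 to 79.8 CPM in knockin (median 64.0), a rise of 0.59 ± 0.07 without overlap (adjusted p = 2.4e-05). Scap, the escort of the factor, rose by 0.17 ± 0.03, Insig1, which retains it, fell by 0.32, Cyp46a1, the neuronal cholesterol hydroxylase, fell by 0.25 and Apoe fell by 0.39. The call of Apoe ended without the libraries low in Hox genes (-0.37, adjusted p = 0.056) and held without the 3 libraries (-0.51, adjusted p = 1.5e-06).

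Most genes of fatty acid synthesis and desaturation fell too. Of 17 genes 0 rose, 10 fell and 7 did not pass, where 9.11% of all genes fell, and the median was -0.18. Fads1 and Fads2, the desaturases of long polyunsaturated fatty acids, fell by 0.53 and 0.43 on the log2 scale, Scd1 and Scd2, which introduce the first double bond, by 0.34 and 0.38, and Fasn, the synthase, by 0.29. In each of these 5 the groups did not overlap. Acaca, Acly and Me1 did not pass. Without the 2 libraries low in Hox genes 16 cholesterol genes and 9 fatty acid genes fell, and without the 3 libraries 17 and 11 fell.

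Genes of the inferior olive fell in the knockin. Of 12 genes 1 rose, 8 fell and 3 did not pass, beside 9.11% of all genes that fell, and the median was -0.60. Crh (ENSMUSG00000049796), the stress peptide that olive neurons release from climbing fibres, lay at 3.74 to 36.5 CPM in wild type (median 21.9) and at 2.20 to 3.85 CPM in knockin (median 3.10). A single wild type library met the knockin range, replicate 5, which is low in Hox genes. The difference was -2.82 ± 0.33 (adjusted p = 5.9e-05), and without the 2 such libraries it was -3.01 (adjusted p = 2.2e-07), with 15.6 to 36.5 CPM against 2.20 to 3.85 CPM and no overlap.

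C1ql1, the synaptic organiser that climbing fibres deposit on Purkinje cells, lay at 18.0 to 76.0 CPM in wild type (median 41.7) and at 8.22 to 16.5 CPM in knockin (median 13.5), a difference of -1.83 ± 0.25 without overlap (adjusted p = 0.00021). Htr5b, a serotonin receptor gene of the olive, lay at 2.18 to 34.8 CPM in wild type (median 16.8) and at 0.305 to 3.88 CPM in knockin (median 1.92), a difference of -3.12 ± 0.51 (adjusted p = 0.001). The lowest wild type value of both genes, and the lowest knockin value of Htr5b, came from the libraries low in Hox genes. Without those libraries C1ql1 lay at 28.6 to 76.0 CPM and at 8.22 to 16.5 CPM (-1.99, adjusted p = 7.9e-05) and Htr5b at 11.4 to 34.8 CPM and at 1.16 to 3.88 CPM (-3.08, adjusted p = 5.9e-05), neither with overlap. Foxp2 fell by 0.87 on the log2 scale, the neuronal gap junction gene Gjd2 by 0.29 and the T-type calcium channel gene Cacna1g by 0.39. Calb1 (-0.81 ± 0.24) and Pou4f1 (-1.57 ± 0.48) were called at adjusted p of 0.034 and 0.039, and those calls ended in 15 and 18 of 32 settings. Slc17a6, the glutamate transporter of olive and many other neurons, did not pass (-0.04 ± 0.09). Without the 2 libraries low in Hox genes 8 of the 12 fell.

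Genes of serotonin neurons and of the response to serotonin fell as well. Of 15 genes 0 rose, 9 fell and 6 did not pass, where 9.11% of all genes fell, and the median was -0.89. The receptor gene Htr1b lay at 16.6 to 22.6 CPM in wild type (median 20.6) and at 7.71 to 13.5 CPM in knockin (median 11.1), a difference of -0.89 ± 0.10 (adjusted p = 2.4e-05). The autoreceptor gene Htr1a lay at 22.9 to 29.5 CPM in wild type (median 26.8) and at 9.93 to 17.8 CPM in knockin (median 15.6), a difference of -0.80 ± 0.10 (adjusted p = 4.4e-05). Both receptors separated the groups in all 16 libraries.

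Some calls among the genes that define serotonin neurons depended on the libraries low in Hox genes. Slc6a4, the serotonin transporter gene, lay at 17.7 to 136 CPM in wild type (median 36.2) and at 3.61 to 19.8 CPM in knockin (median 9.99), where 136 CPM was wild type replicate 5. Its difference of -2.12 ± 0.48 (adjusted p = 0.0085) was -1.62 without the libraries low in Hox genes (adjusted p = 0.015). Tph2, the enzyme that makes serotonin in neurons, lay at 31.5 to 212 CPM in wild type (median 57.6) and at 10.2 to 47.3 CPM in knockin (median 21.2), with 212 CPM in the same library. The call of Tph2 (-1.56 ± 0.46, adjusted p = 0.032) ended without those libraries (-1.09, adjusted p = 0.065), as did that of the vesicular transporter gene Slc18a2 (-1.18 ± 0.36 against -0.83). Without them 7 of the 15 genes fell.

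The count of noradrenergic falls rose without those libraries. Of 9 genes tested 0 rose and 3 fell, where 9.11% of all genes fell, with a median of -0.67. Without the libraries low in Hox genes 6 fell, where 8.88% of all genes did. Adra2a, the inhibitory adrenergic receptor gene, lay at 36.2 to 43.2 CPM in wild type (median 40.1) and at 23.7 to 29.4 CPM in knockin (median 27.5), a difference of -0.54 ± 0.04 without overlap (adjusted p = 1.2e-07). Dbh, which makes noradrenaline, lay at 9.07 to 27.1 CPM in wild type (median 11) and at 4.21 to 13.8 CPM in knockin (median 5.94), and both highest values came from the libraries low in Hox genes. The difference was -0.96 ± 0.27 (adjusted p = 0.023), and without those libraries -0.95 (adjusted p = 0.00027) with no overlap. Th, Slc6a2 and Pnmt did not pass with all libraries and passed without them, with differences of -0.62, -1.39 and -1.30. The factor gene Phox2a fell by 0.67 on the log2 scale.

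No cholinergic motor neuron gene was called lower. Of 18 genes 2 rose, 0 fell and 16 did not pass (11.1% called, beside 17.5% of all genes), and the median was -0.03. The 2 were Calca and Uts2, described above. Chat, the enzyme of acetylcholine synthesis, lay at 13.2 to 28.1 CPM in wild type (median 21.8) and at 11.4 to 31.5 CPM in knockin (median 17.7), with wide overlap (-0.09, adjusted p = 0.7).

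Neuropeptide genes fell more often than they rose. Of 31 genes tested 2 rose, 9 fell and 20 did not pass, where 9.11% of all genes fell, and the median was -0.40. Without the libraries low in Hox genes 13 fell, and 14 fell without the 3 libraries. Cck lay at 7.56 to 23.5 CPM in wild type (median 15.7) and at 3.19 to 8.05 CPM in knockin (median 6.94), a difference of -1.30 ± 0.22 (adjusted p = 0.00091). Each group's lowest value was its library low in Hox genes, and without those libraries the groups did not overlap. Nppc, the C-type natriuretic peptide gene, fell by 1.22 on the log2 scale, Gal by 1.30, Cartpt by 0.96, Sst by 0.73 and Prlh, the prolactin-releasing peptide gene of the caudal medulla, by 2.37. Prlh was at 0 CPM in both libraries low in Hox genes. Penk, Tac1, Npy, Nts and Trh did not pass with all libraries, and Penk passed without those 2 (-0.55). Npy passed without the 3 libraries (-0.68).

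Transmission by glycine and GABA, the main inhibitory transmitters of the medulla, was called in few members. Of 22 genes 0 rose, 3 fell and 19 did not pass (13.6% called, beside 17.5% of all genes), and the median was -0.06. Among the 3 were the transporter genes Slc6a9 and Slc6a11. Slc6a9, which takes up glycine into astrocytes, lay at 225 to 252 CPM in wild type (median 239) and at 149 to 182 CPM in knockin (median 169), a difference of -0.52 ± 0.05 without overlap (adjusted p = 1.2e-06). Slc6a5, the glycine transporter gene of inhibitory neurons, lay at 251 to 550 CPM in wild type (median 426) and at 218 to 426 CPM in knockin (median 378) and did not pass (-0.20, adjusted p = 0.37).

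Among 27 genes of glutamate transport and reception 1 rose, 5 fell and 21 did not pass (22.2% called, beside 17.5% of all genes). Their median was -0.08. The metabotropic receptor genes Grm4, Grm2 and Grm3 fell by 0.60, 0.59 and 0.41 on the log2 scale, and the AMPA receptor gene Gria1 fell by 0.33. Potassium channels had 0 rises and 12 falls among 30 genes, where 9.11% of all genes fell, with a median of -0.14. Kcnj10, also on the astrocyte list, is among the 12. Kcnn2, a calcium-activated channel, fell by 0.34, Kcnc1, which supports fast firing, by 0.44 and Kcna6 by 0.38. Among 25 sodium and calcium channel genes 1 rose and 5 fell (24% called), with a median of -0.01. The falls were led by Scn4b (-0.39 ± 0.07), the subunit of resurgent sodium current. Without the 3 libraries, where 13% of all genes rose, 4 glutamate genes and 5 sodium and calcium channel genes rose.

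Of 16 neurofilament and axon cytoskeleton genes 0 rose and 6 fell, beside 9.11% of all genes that fell, with a median of -0.11. Without the libraries low in Hox genes 3 fell, and without the 3 libraries 3 fell and 1 rose. Nefl, the light chain gene, lay at 1210 to 1600 CPM in wild type (median 1510) and at 997 to 1230 CPM in knockin (median 1140), a difference of -0.36 ± 0.05 with a narrow overlap. Nefm and Nefh fell by 0.25 and 0.19 on the log2 scale. Of 24 synaptic vesicle and release genes 0 rose and 7 fell (29.2% called, beside 17.5% of all genes), with a median of -0.10. Cplx2, which clamps and promotes vesicle fusion, fell by 0.56, Doc2b by 0.36, Syn2 by 0.31 and Snap25, a fusion protein gene, by 0.26, each without overlap. The perineuronal net had 0 rises and 3 falls among 11 genes (27.3% called), and 6 falls without the 3 libraries. The 3 were Bcan, Ncan and Hapln2, which is also on the myelin list. The call of Ncan ended in 17 of 32 settings, also without the libraries low in Hox genes (adjusted p = 0.061). Immediate early genes had 0 rises and 3 falls among 18 (16.7% called, beside 17.5% of all genes), with Arc falling by 0.54 without overlap. Knockin replicate 2 held the lowest summed level of the axon and synaptic lists.

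Some genes of neurotrophins and their receptors fell. Of 19 genes tested 1 rose, 8 fell and 10 did not pass, where 9.11% of all genes fell, and the median was -0.19. Ntrk2, the receptor of brain-derived neurotrophic factor, lay at 499 to 673 CPM in wild type (median 535) and at 412 to 538 CPM in knockin (median 440), a difference of -0.28 ± 0.06. The ciliary neurotrophic factor receptor gene Cntfr fell by 0.24 on the log2 scale, the factor genes Gdnf and Lif by 1.64 and 1.06 from levels under 1 CPM, and Igf1 by 0.22. Igf1r rose by 0.19 ± 0.05.

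Clock genes formed another set of falls. Of 18 genes 2 rose, 9 fell and 7 did not pass, where 9.11% of all genes fell, and the median was -0.15. Bhlhe41, a repressor of the clock, lay at 64.3 to 71.3 CPM in wild type (median 67.1) and at 47.3 to 57.6 CPM in knockin (median 53.9), a difference of -0.34 ± 0.04 without overlap (adjusted p = 1.4e-05). Tef fell by 0.30 on the log2 scale, also without overlap, Ciart by 0.37 and Dbp by 0.58. Arntl and Cry1, which peak at other times of day, rose by 0.22 each. The hour at which tissue was taken is not in the labels. Of 16 glucocorticoid-responsive genes 0 rose and 3 fell (18.8% called, beside 17.5% of all genes). The 3 were Tsc22d3 (-0.35 ± 0.05) and the metallothionein genes Mt1 (-0.73 ± 0.11) and Mt2 (-0.75 ± 0.13).

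Ependyma with its motile cilia lines the ventricle and adjoins the choroid plexus. Of 23 motile cilia and ependyma genes tested 1 rose, 8 fell and 14 did not pass, where 9.11% of all genes fell. Their medians were -0.03 in batch 1 and -0.82 in batch 2. Ccdc153 lay at 3.22 to 8.38 CPM in wild type (median 6.41) and at 0.809 to 2.96 CPM in knockin (median 2.50), a difference of -1.45 ± 0.25 without overlap, and Tmem212 fell by 1.39 on the log2 scale. Without the 3 libraries 12 fell. By edgeR, 0 of 15 choroid plexus genes were called, with 0 at an unadjusted p under 0.05 and 0 called by DESeq2 or limma-voom, and their medians were 2.20 in batch 1 and -1.80 in batch 2. Their summed level ran from 594 to 6850 CPM in wild type and from 811 to 33500 CPM in knockin, and their part in the ciliary falls was not tested. Lrp2, a receptor of that epithelium and of ependyma, was among the 10 largest falls (-1.12 ± 0.18), lying at 1.88 to 3.98 CPM in wild type and at 0.760 to 1.64 CPM in knockin.

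The remaining genes of the 10 largest falls have roles in neurons and glia. Hrh3, the histamine autoreceptor gene, lay at 24.9 to 30.6 CPM in wild type (median 28.7) and at 9.50 to 17.1 CPM in knockin (median 12.2), a difference of -1.18 ± 0.08 (adjusted p = 1.2e-07). C1ql2, a relative of C1ql1, lay at 5.77 to 12.3 CPM in wild type (median 7.02) and at 2.07 to 4.64 CPM in knockin (median 3.36), a difference of -1.22 ± 0.18. Tpbgl fell by 1.22 and Ier5l by 1.1 on the log2 scale. The groups of these 4 genes did not overlap.

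Lists of cell stress are read beside 17.5% of all genes called. The unfolded protein and integrated stress list had 4 rises and 2 falls among 22 genes (27.3% called), with Ern1 (0.27 ± 0.05), Atf6 (0.21 ± 0.04) and Psat1 (0.29 ± 0.06) among the rises and Mthfd2 (-0.31 ± 0.06) among the falls. Heat shock chaperones had 2 rises, Hspa8 and Hsp90aa1, and 2 falls among 24 (16.7%), and the call of Hsp90aa1 ended without the libraries low in Hox genes (adjusted p = 0.074). Lysosome genes had 1 rise and 1 fall among 28 (7.14%), proteasome subunits 0 and 2 among 31 (6.45%), p53 and cell cycle genes 2 and 1 among 21 (14.3%), and apoptosis genes 2 and 1 among 18 (16.7%). Bcl2l11, the cell death gene Bim, rose by 0.36 ± 0.07 without overlap. Nuclear genes of oxidative phosphorylation had 1 rise and 1 fall among 34 (5.88%), and ribosomal protein genes 0 rises and 3 falls among 36 (8.33%). Without the 3 libraries that stand apart, where 13.5% of all genes fell, those lists had 14 and 21 falls, the unfolded protein list 6, lysosome genes 5, proteasome subunits 4, heat shock chaperones 4, p53 and cell cycle genes 3 and apoptosis genes 2. By edgeR 0 of 13 mitochondrial genes were called, with a median of 0.02, while 2 had an unadjusted p under 0.05 and 2 were called by DESeq2 and 0 by limma-voom.

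Lists of further cell types were called in shares on both sides of the 17.5% over all genes. Endothelium had 1 rise (Angpt1, 0.50) and 1 fall (Slc2a1, -0.20) among 21 genes (9.52%), pericytes 0 and 1 among 14 (7.14%), meninges 0 and 0 among 15 (1 at an unadjusted p under 0.05, and 0 called by DESeq2 or limma-voom) and blood 0 and 2 among 8 (25%). Without the 3 libraries 3 endothelial and 2 pericyte genes fell. Cerebellar neuron genes had 1 rise and 4 falls among 18 (27.8%), with Grm4, Aldoc, Pcp4 and Calb1 lower, and forebrain and midbrain genes 2 rises and 1 fall among 13 (23.1%), with Drd2 lower (-0.77 ± 0.10) without overlap. Hox genes had 1 rise among 18, Hoxa7.

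The batches gave different numbers of calls. Batch 1 alone gave 500 called genes, which is 2.50% of those tested, and batch 2 alone 4057, or 20.7%, with 8 libraries in each. Of the 490 called in batch 1 and tested in both, 484 had the same sign in batch 2 (98.8%), and 335 were called the same way in both, which is 68.4% of the batch 1 calls and 8.28% of the 4045 calls of batch 2. Of those 4045, 2909 had the same sign in batch 1 (71.9%). Across all 19282 genes tested in both, the sign was shared by 58.9% and the correlation of the differences was 0.20. Without knockin replicate 2, the library with the most choroid plexus RNA, batch 1 gave 1139 calls (5.62%), the sign was shared by 68.2% of all genes and by 88.4% of the calls of batch 2, and the correlation was 0.45.

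A test of the difference between batches called 0 of 20804 genes by edgeR (0%), with 3617 (17.4%) at an unadjusted p under 0.05. That share is larger than the threshold alone would give, so the 0 calls do not show that the batches have the same effect. On simulated data the same test recovered 28 of 50 genes whose effect differed 2-fold between batches and 2 of 50 that differed 1.5-fold. There were 9 false calls, and smaller differences between batches were mostly missed there. That simulation changed few genes and gave all genes the same spread, so it does not set the smallest difference between batches that these libraries can show. The lowest adjusted p was that of Comtd1 (0.084).

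**Figure D3:**
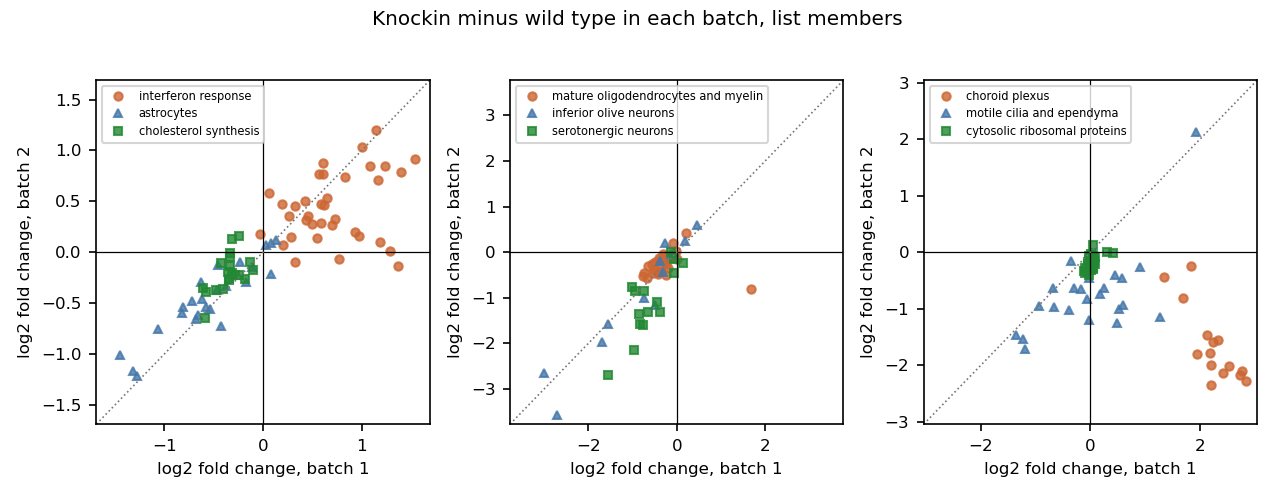
Difference between knockin and wild type in batch 1 (x axis, log2) against batch 2 (y axis, log2) for the members of 3 sets of lists; each point is a gene and the dotted line marks equal values. Interferon genes lie mostly in the upper right (32 of 36 positive in both), and astrocyte genes mostly in the lower left.

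The pons of mice of the same age is the nearest tissue in the study, and 4 libraries per genotype were compared there. Fitted alone it gave 2007 called genes of 19898 (10.1%). The interferon list had 22 rises and 0 falls there, where 4.14% of all genes rose, with a median of 0.45, and the astrocyte list 19 falls, where 5.95% of all genes fell, with a median of -0.52. Cholesterol synthesis had 16 falls with a median of -0.40, and myelin 15 falls with a median of -0.41. Igf2bp3 (5.81), Irf7 (1.25), Itih3 (-1.0) and Slc1a2 (-0.91) were called in pons with nearly the medulla's differences. The 8 medulla libraries of batch 1 carry header numbers that pons libraries also carry, and the labels do not say whether these are the same mice.

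A test of the difference between the tissues called 7 of 21273 genes (0.0329%), 5 with a higher effect in medulla (0.0235%) and 2 with a lower one (0.00940%). For Calca the wild type libraries of pons held 12.1 to 22.5 CPM (median 13.9) and its knockin libraries 3.92 to 10.1 CPM (median 6.69), lower without overlap where the medulla was higher. In pons alone Calca did not pass (-1.18, adjusted p = 0.1). The difference between the effects was 2.29 ± 0.33 (adjusted p = 0.016). Nptx2, a synaptic pentraxin gene that activity induces, differed by -1.26 ± 0.23: it fell by 1.01 on the log2 scale in medulla and was not called in pons (0.26 ± 0.13). Styk1, a kinase-like gene, differed by -1.86 ± 0.33. Ppp1r1c (1.65 ± 0.27), Layn (0.80 ± 0.13) and Stk32a (0.73 ± 0.13) made up the rest with Fezf2, a factor of cortical neurons. Fezf2 had 16 reads in the wild type medulla libraries, at most 6 in a library, and 347 in the knockin ones, 2 to 66 in each. The ratio of the summed levels was 20.4 (95% interval 12.4 to 36.1). That interval leaves out the spread among libraries, and it is too narrow even for counting error, for the same reason as that of Igf2bp3. These 7 calls ended in 3 to 16 of 29 alternative settings each. The count was 0 without wild type pons replicate 3, 1 without knockin pons replicate 2, 3 without wild type pons replicate 2, 4 without knockin pons replicate 3, 13 without wild type medulla replicate 5, 14 without knockin medulla replicate 2 and 239 without knockin pons replicate 4. With batch 1 of the medulla alone it was 5, and 0 with the header number as a block.

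Lists of neurons showed values apart between the tissues. In pons 5.95% of all genes fell. Cholinergic motor neuron genes had 8 falls in pons with a median of -0.79, among them Chat (-1.16, adjusted p = 0.001), against 0 in medulla, but the difference between tissues was not called for Chat (adjusted p = 0.17). Noradrenergic genes had 7 falls in pons with a median of -1.37, and Dbh differed there by -2.53. The inferior olive list, whose nucleus lies in the medulla, had 5 falls among 12 genes in pons, beside the same 5.95%, with a median of -0.21. Crh and C1ql1 fell in pons too (-1.25 and -0.70, adjusted p = 2e-04 and 0.019). For both, the difference between tissues was not called (adjusted p = 0.41 and 0.47). No list member other than Calca was called in the difference between medulla and pons.

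Cerebellum at 18 weeks differs from the medulla in both tissue and age, which cannot be told apart here. Fitted alone it gave 3161 called genes of 19493 (16.2%). Interferon genes had 7 rises there, where 7.48% of all genes rose, and 1 fall, with a median of 0.32. Astrocyte genes had 11 falls, where 8.74% of all genes fell, with a median of -0.22, myelin genes 3 falls with a median of -0.05 and cholesterol genes 3 falls with a median of -0.07.

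The difference between medulla and cerebellum was called for 1126 of 21544 genes (5.23%), 512 higher in medulla (2.38%) and 614 lower (2.85%). Among them, 229 fell in medulla and were not called in cerebellum, 97 rose in medulla and were not called in cerebellum, 37 rose in medulla and fell in cerebellum, and 45 fell in medulla and rose in cerebellum. Of 24 astrocyte genes 12 had a lower effect in medulla, beside 2.85% of all genes, and 2 a higher one. For Itih3 the effect was -1.24 in medulla and -0.38 in cerebellum (adjusted p of the difference 7.2e-06), for Slc1a2 -0.91 and -0.17 (4.3e-05) and for Glul -0.64 and -0.10 (1e-04). Slc1a3 went the other way, at 0.05 in medulla and -0.46 in cerebellum (0.0046). Of 31 myelin genes 7 had a lower effect in medulla, and of 20 cholesterol genes 3 did, Mvd with -0.62 against 0.02 (3e-04). Of the interferon genes 4 had a higher effect in medulla and 1 a lower one. Ddx58 had 0.59 against 0.17 (0.019) and Stat2 0.13 against -0.20 (0.0095), while Cmpk2 had 0.07 against 0.46 (0.026). The lowest adjusted p was that of Rnf19b, at -0.07 in medulla, where it was not called, and -0.79 in cerebellum (1.6e-08).

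**Figure D4:**
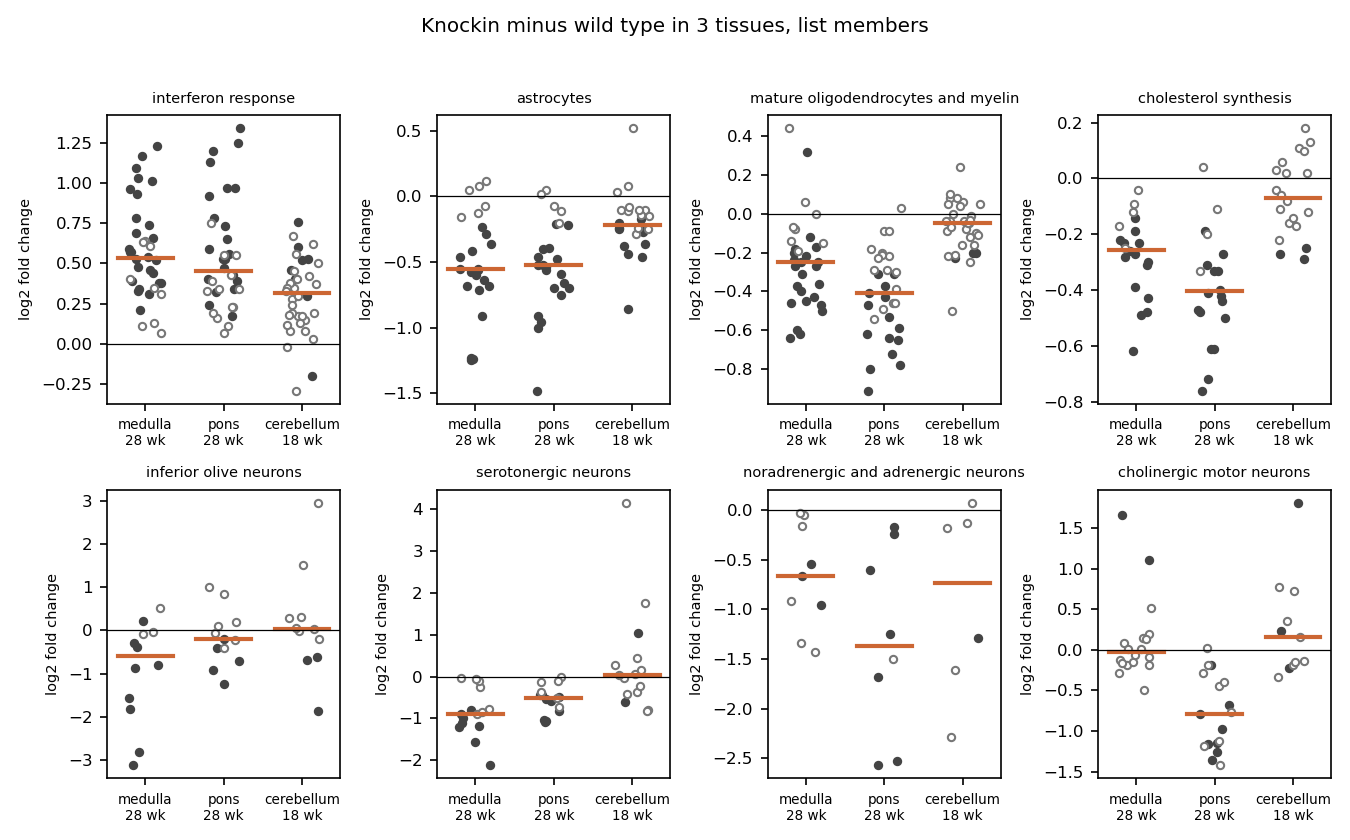
Difference between knockin and wild type (y axis, log2) for the members of 8 lists in medulla at 28 weeks, pons at 28 weeks and cerebellum at 18 weeks; filled points were called in that tissue, open points were not, and bars are medians. Astrocyte medians are -0.55, -0.52 and -0.22 in the 3 tissues, and interferon medians are 0.53, 0.45 and 0.32.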

How the data were processed

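Gene counts were deposited by the authors as 1 table of whole-number counts for 65 libraries (49670 gene IDs), of which the 16 medulla libraries at 28 weeks were compared here, and 8 pons and 8 cerebellum libraries were used beside them. Per the submitters' processing notes, CASAVA 1.8, HISAT2 2.0.2, featureCounts of Subread, R 3.3.3, DESeq2 1.14.1 and the GRCm38 build were used. Per the labels' protocols, RNA was made into TruSeq stranded libraries. Even counts made up 73.8% to 76.5% of counts from 1 to 20, so that the mates of a pair seem to have been counted singly. Names for 49411 IDs came from GENCODE vM21, and the 259 IDs left over held 0.035% of counts.

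Counts were fitted in R 4.3.3 with edgeR 4.0.16 (robust quasi-likelihood test, TMM, filterByExpr with a minimum count of 10, a term for batch, Benjamini-Hochberg adjustment, called under 0.05). Differences between batches and tissues were interaction terms. DESeq2 1.42.0 and limma 3.58.1 served as alternatives, beside other scalings, filters, batches and left-out libraries. On simulated counts for 19691 genes the comparison recovered 4 of 50 genes changed 1.25-fold, 39 of 50 changed 1.5-fold, 48 of 50 changed 2-fold and 49 of 50 changed 4-fold, with 5 false calls.

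The members and the 52 gene lists were chosen with earlier results of these data known. Named genes are Atxn1, the 10 largest rises and falls among called genes with an average of at least 1 log2 CPM and no overlap, up to 4 called members per list with the smallest adjusted p (2 by p where none was called), up to 6 called genes per interaction (3 by p where none was called), and 12 genes named whatever their values. Other list members are named with their values where a list is described. Some genes stand on several lists and are counted in each. Replicate numbers did not pair the libraries across genotypes. A few genes that the rule would name are not reported here.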

Additional observations from a re-analysis of the deposited data

Results flagged for a closer look

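Single libraries stood apart from the rest of their group, by a gap test, in 31 of 166 groups of values tested, where chance gives about 1 in 20. Knockin replicate 2 accounts for many of them. It held 105 M counts (next library 91.5 M) and summed levels of 33500 CPM for choroid plexus (next 5450), 218 CPM for cilia (114), 2860 CPM for cerebellar neuron genes (2240), 292 CPM for forebrain and midbrain genes (84.1), 3490 CPM for activated microglia (2580), 2970 CPM for sterol regulation (2410), 11000 CPM for nuclear oxidative phosphorylation (10000) and 411 CPM for p53 and cell cycle genes (379). The same library was lowest among knockin libraries for inferior olive (520 CPM, next 538), glycine and GABA transmission (2800, next 3460), glutamate genes (1810, next 2070), potassium channels (2760, next 3410), sodium and calcium channels (2370, next 2980), neurofilaments (8170, next 10700), synaptic genes (10200, next 12300) and interferon production and sensing (680, next 741).

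Knockin replicate 8 stood apart in Hox genes (0.0183 log2 CPM, next 2.77), pericyte genes (348 CPM, next 275), Ifit1 (19 CPM, next 12.1), Cck (3.19 CPM, next 6.20) and Dbh (13.8 CPM, next 8.10). Wild type replicate 5 did so in Hox genes (-0.291 log2 CPM, next 2.83), serotonergic genes (848 CPM, next 460), noradrenergic genes (315 CPM, next 228), immediate early genes (215 CPM, next 189), Tph2 (212 CPM, next 96.5) and Dbh (27.1 CPM, next 14.7). Wild type replicate 8 was highest in homeostatic microglia genes (544 CPM, next 449), fatty acid synthesis (6040 CPM, next 5800) and the unfolded protein list (1670 CPM, next 1460).

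The genotype effect differed between medulla and pons, tested as an interaction by edgeR, for Calca (2.29), Ppp1r1c (1.65), Layn (0.80), Fezf2 (6.38), Stk32a (0.73), Styk1 (-1.86) and Nptx2 (-1.26), on the log2 scale with adjusted p of 0.016 to 0.031. Between medulla at 28 weeks and cerebellum at 18 weeks the smallest p-values were those of Rnf19b (0.72), Mtss1 (0.65), Fam163b (-2.45), Chst8 (0.95), Dner (0.59) and Ccdc63 (2.32), with adjusted p of 1.6e-08 to 1.2e-07.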

How the results depend on the processing

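Under the 32 alternatives no gene called in the comparison was called in the opposite direction. The count of 3454 moved by over 1.5 times to 500 in batch 1 alone, 1139 in batch 1 without knockin replicate 2, 2026 with the replicate number as a block and 5264 without the 3 libraries that stand apart, and it ran from 2634 to 5236 when a library was left out, the extremes being without knockin replicates 5 and 2. The settings without knockin replicate 2 in batch 1 and without the 3 libraries, a term for Xist (3550) and the header number as a block were added after seeing the data. Replicate numbers did not pair the libraries: correlations of same-numbered deviations ran from -0.31 to 0.19 and 2 of 8 pairs were over 0.1. Of the 2026 genes called with the block, 2002 were shared, and 70 of 285 called genes on the lists or among the largest changes lost their call. Of those 285, 82 kept their call under all alternatives, 203 lost it under at least 1 and 0 changed sign. The count for medulla against pons (7) became 14 without the libraries low in Hox genes, 377 with medulla batch 2 alone and 0 with batch 1 and the header number as a block, and ran from 0 (without wild type pons replicate 3) to 239 (without knockin pons replicate 4). The count for cerebellum (1126) ran from 732 to 1421 and that between batches from 0 to 0. Atxn1 ran from 0.34 to 0.41 over the 32 alternatives and kept its call. Depth was 77.0 to 105.0 M counts. In the simulation 4 of 50 genes changed 1.25-fold were recovered, while 1149 rises and 935 falls of up to 1.25-fold were called in these libraries. The simulation changed few genes and gave all genes the same spread, so it does not set the smallest change that these libraries can show.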

Other observations

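Some Hox genes expressed at low levels were among the largest rises by edgeR, and Hoxb9, Hoxd9 and Hoxd8 were chosen for mention after their values were seen. Hoxa7 lay at 1.06 to 3.77 CPM in wild type and at 4.97 to 21.9 CPM in knockin without the libraries low in Hox genes (difference 2.06, adjusted p = 6.9e-05), with no overlap. Hoxd8 lay at 0.491 to 1.98 CPM and at 1.5 to 8.68 CPM in the same libraries (1.76, adjusted p = 0.0018). With all 16 libraries Hoxa7 passed (adjusted p = 0.026, lost in 7 of 32 alternatives) and Hoxd8 did not (adjusted p = 0.066). With all 16 libraries Hoxb9 differed by 4.95 ± 0.87 (adjusted p = 0.0016) and Hoxd9 by 4.81 ± 0.61 (adjusted p = 7.6e-05), from means of 0.103 and 0.0575 CPM in wild type to 3.14 and 1.61 CPM in knockin. Neither Hoxb9 nor Hoxd9 is on the Hox list by which libraries were set apart as low in Hox genes. Whether the position at which tissue was cut differed between the groups was not tested. Of the 18 genes on the Hox list, 17 did not pass with all libraries. Hoxa2 passed without the libraries low in Hox genes, with a difference of -0.28 (adjusted p = 0.035).

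Genes near Atxn1 on chromosome 13 were called in a larger share than genes farther away. Within 5 Mb 20 of 72 tested genes were called (27.8%), 13 higher and 7 lower, and from 5 to 10 Mb 21 of 82 (25.6%). From 10 to 20 Mb the share was 15%, from 20 to 40 Mb 17.9%, beyond 40 Mb 16.9%, and on other chromosomes 17.5% (3324 of 19016). Elovl2, an elongase of very long fatty acids 4.33 Mb away, rose by 0.55 ± 0.06 (adjusted p = 7.3e-06) without overlap, and Dtnbp1, 0.55 Mb away, fell by 0.22 on the log2 scale (adjusted p = 0.0017). The shares were not tested against each other.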
